A study of Mus musculus with 12 samples.

Results

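Pseudogenes are gene copies that no longer encode the full protein. A locus was counted as one where the annotation attached to the deposited expression tables gave it a biotype ending in "pseudogene", which chose 10407 of 66468 assembled loci with no use of their values. By that column 7431 loci were processed, 2581 were unprocessed, and 395 carried another pseudogene biotype (plain, polymorphic, unitary, or an immunoglobulin or T cell receptor segment) and are called the remaining class. A locus here is a transcription unit of the authors' merged assembly, so a pseudogene can have several of them, and the 10407 loci named 9918 genes. RNA was measured by total RNA sequencing in the livers of wild-type C57BL/6 mice (C57BL/6N in the study's methods), 17 weeks old and all on the control diet labelled NCD, in 3 groups of 4 libraries. RF mice were refed for 6 h after a 16 h fast, FA mice were fasted for 16 h, and AL mice had food ad libitum. Each group has 1 pooled value per locus, in FPKM (fragments scaled to transcript length and to the fragments of the library), so the spread between mice cannot be seen, the depth is unknown, and no difference below was tested. In bulk tissue, fewer cells of a type and less RNA per cell cannot be told apart.

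A processed pseudogene arises when an mRNA is copied back into DNA and inserted elsewhere in the genome, which leaves a copy without introns and usually without its promoter. Genes with abundant mRNA in the germ line, such as those of ribosomal proteins, have many such copies. An unprocessed pseudogene arises by duplication of a genomic segment and keeps the intron and exon layout of its parent, and in rodents many lie in clusters of detoxification, urinary protein, serpin and olfactory genes. Because a pseudogene can be almost identical to its parent gene, reads from the parent can align to it, and short reads that match both copies equally cannot be placed by sequence.

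The sequences below show how close 5 of the loci that were lower in FA than in AL and higher in RF than in FA were to protein-coding genes of sterol and fatty acid synthesis, picked after their values were seen, with a more distant ribosomal protein copy for comparison. Each is a stretch of 120 bases of the coding sequence, 5′ to 3′, from GENCODE M21 transcripts on GRCm38, chosen as the gap-free stretch with the most differences from the parent. Capitals mark bases of the pseudogene that differ from the protein-coding transcript above it. The sequences and strands given are those of the annotated pseudogenes. All but the ribosomal protein copy had their measured locus assembled on the opposite strand.

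Fdps: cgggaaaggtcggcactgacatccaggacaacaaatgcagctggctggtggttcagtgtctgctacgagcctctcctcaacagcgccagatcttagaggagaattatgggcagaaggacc
Gm3571: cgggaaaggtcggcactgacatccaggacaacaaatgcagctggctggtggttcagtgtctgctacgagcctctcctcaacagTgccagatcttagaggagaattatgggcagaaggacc
Gm5873: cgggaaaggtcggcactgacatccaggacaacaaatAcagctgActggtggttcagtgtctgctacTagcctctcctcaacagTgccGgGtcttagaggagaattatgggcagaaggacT

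Fdps encodes farnesyl diphosphate synthase, an enzyme on the route to cholesterol. Gm3571 on chromosome 10, whose biotype is plain pseudogene (stretch at chr10:93779421-93779540, plus strand) differed from it at 10 of 1057 aligned coding bases, and at 1 base of this stretch. Gm5873 on chromosome 6 (chr6:6735608-6735727, minus strand) differed at 28 of 1059 coding bases and at 7 here, and carried 1 stop codon in the parent's reading frame.

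Insig1: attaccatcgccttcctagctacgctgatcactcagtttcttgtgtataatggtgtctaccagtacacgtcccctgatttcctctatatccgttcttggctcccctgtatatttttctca
Gm37784: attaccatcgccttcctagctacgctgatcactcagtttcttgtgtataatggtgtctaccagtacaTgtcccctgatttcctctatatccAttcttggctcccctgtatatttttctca
Fdft1: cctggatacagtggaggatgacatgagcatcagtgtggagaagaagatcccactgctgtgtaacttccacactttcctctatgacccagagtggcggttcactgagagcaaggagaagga
Gm6781: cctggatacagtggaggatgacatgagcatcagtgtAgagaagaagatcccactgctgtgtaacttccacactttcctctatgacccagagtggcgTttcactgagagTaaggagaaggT
Elovl6: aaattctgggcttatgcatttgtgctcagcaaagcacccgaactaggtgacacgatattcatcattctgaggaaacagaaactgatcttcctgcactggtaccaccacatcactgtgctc
Gm11295: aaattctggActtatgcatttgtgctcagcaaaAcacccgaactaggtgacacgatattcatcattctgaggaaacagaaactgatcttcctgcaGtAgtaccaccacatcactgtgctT

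Insig1 encodes a membrane protein that holds back activation of the sterol-responsive SREBP transcription factors, Fdft1 encodes squalene synthase, and Elovl6 encodes an elongase of long-chain fatty acids. Gm37784 (chr3:69963282-69963401) covers only 189 coding bases of Insig1 and differed at 2 of them. Gm6781 (chr14:18531593-18531712) differed from Fdft1 at 24 of 1241 coding bases and Gm11295 (chr13:22282789-22282908) from Elovl6 at 18 of 799, and each carried 1 stop codon in the parent's frame.

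Rpl27a: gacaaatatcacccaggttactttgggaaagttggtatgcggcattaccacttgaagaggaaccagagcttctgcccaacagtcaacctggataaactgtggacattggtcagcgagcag
Gm11341: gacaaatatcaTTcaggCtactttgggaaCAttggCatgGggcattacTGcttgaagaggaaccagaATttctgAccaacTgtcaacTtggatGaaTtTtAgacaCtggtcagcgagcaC

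Gm11341 (chr13:24320436-24320555) differed from Rpl27a, which encodes a protein of the large ribosomal subunit, at 51 of 443 coding bases and at 20 of the 120 shown, with 2 stop codons in the frame.

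Most pseudogene loci were listed without a value above 0. In both FA and AL livers 8418 of 10407 (80.9%) were listed at 0, against 18.2% of 32395 protein-coding loci and 70.0% of 4115 lincRNA loci. A 0 in these tables can be a failed estimate, since Alb, which encodes albumin, was also listed at 0, and is reported only as listed. A further 1516 lay below 1 FPKM in both groups, and 473 loci of 457 genes (4.55%) reached 1 FPKM in FA or AL, the level from which ratios were read. These were 397 processed, 58 unprocessed and 18 remaining loci, which is 5.34%, 2.25% and 4.56% of each class. All 203 immunoglobulin and T cell receptor segments stayed below 1 FPKM. Only 5 loci with a vomeronasal, olfactory or zinc finger gene as parent reached it. The liver label was checked with markers: 5 of 6 hepatocyte markers were above 1 FPKM (all but Alb), and the summed hepatocyte level was 6975 FPKM in FA and 6016 in AL, against 16.5 and 19.0 for 4 Kupffer cell markers, 2.51 and 2.59 for 4 lymphocyte markers, and 562 and 758 for 4 erythroid markers.

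The median level of the 473 loci was 2.03 FPKM in FA and 2.02 in AL, and 73 loci had 10 FPKM or more in FA. Of the 10 highest loci, 4 also name, or name only, a protein-coding gene. The locus of Alms1-ps2 and Nat8f2 had 287 FPKM in FA and 303 in AL. The locus of Gm9085 and Rgn, which encodes regucalcin, had 257 FPKM in FA and 566 in AL. The locus annotated to Cyp2c53-ps carries only the name of the steroid and drug oxidase gene Cyp2c29 and had 164.5 FPKM in FA and 421 in AL. The annotated locus RP23-193M8.3 likewise carries only the name Akr1c14, with 75.1 FPKM in FA and 86.7 in AL. In all, 22 of 473 loci named a coding gene and 15 did not name their own pseudogene, and their values may be those of the coding gene.

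The other 6 of the 10 highest loci were near-identical copies of highly expressed genes. Gm14303 had 207 FPKM in FA and 222 in AL, and its parent Rps29, a gene of the small ribosomal subunit, had 127 and 137. Tpt1-ps3, identical to the Tpt1 transcript over all 519 of its bases, had 88.9 FPKM in FA and 112 in AL. Gm11966 (84.5 in FA, 99.9 in AL) matched the ATP synthase gene Atp5j at 100%. Gm9794 (83.3 and 88.0) and Gm4149 (67.3 and 73.3) matched Rpl23 and Rpl37a at 99.8% and 99.6%, and Rpl38-ps2 (79.5 and 96.6) matched Rpl38 at 100%. Among the 73 loci at 10 FPKM or more, 28 had a cytosolic ribosomal protein parent and 36 were at least 98% identical to a coding transcript. FPKM divides by length, so a short copy reaches a high value from few fragments, and 3 of the 10 highest loci had transcripts under 300 bases.

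**Figure D1:**
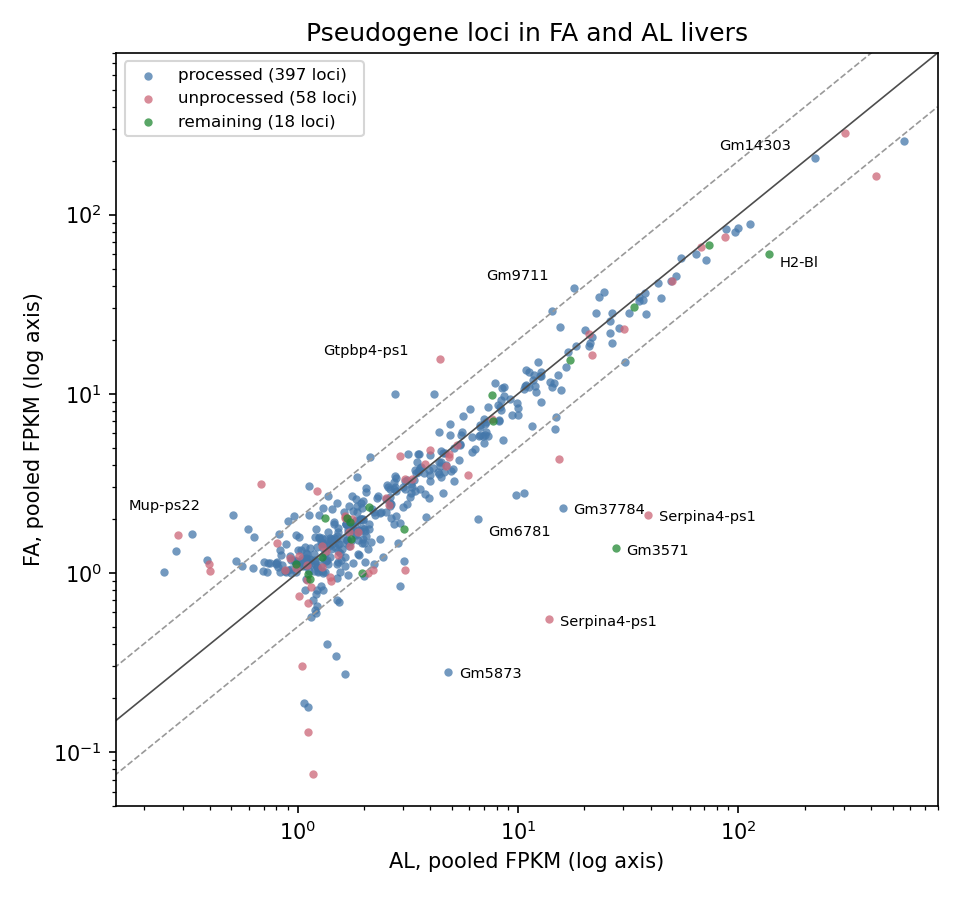
Pooled FPKM of the 473 pseudogene loci at 1 FPKM or more in FA or AL, with AL on the horizontal and FA on the vertical log axis, 1 point per locus and colour by class. The solid line marks equal values and the dashed lines a 2-fold ratio of the plain FPKM. Most points lie between the dashed lines, and Gm3571, Gm5873, Gm37784 and both Serpina4-ps1 loci lie far below them.

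The fasting comparison asked which loci differ between FA and AL livers. With the ratio taken as log2((FA + 0.1)/(AL + 0.1)), 22 of 473 pseudogene loci (4.65%) were 2-fold or more higher in FA, beside 2.73% of all 17319 loci that passed the same level, and 27 (5.71%) were 2-fold or more lower, beside 3.83% of all. Of 252 lincRNA loci, 7.14% were higher and 5.16% lower, so shares above those of all loci were not particular to pseudogenes. The median log2 ratio was -0.03 for pseudogenes and -0.02 for all loci. Of the processed class, 16 of 397 were higher and 16 lower (4.03% each). Of the unprocessed class, 6 of 58 were higher and 9 lower. The remaining class had 0 of 18 higher and 2 lower. Most of the 22 higher loci were below 1 FPKM in AL and passed the level only through FA. Several of the 27 lower ones were below 1 FPKM in FA and passed only through AL. These counts thus partly follow from the level filter, which was the same for all loci. Loci near 1 FPKM carry few fragments, and the median level of all 17319 loci was 2.89 FPKM in FA, above that of the pseudogenes. At 5 FPKM or more, 5 of 134 pseudogene loci (3.73%) were higher and 13 (9.70%) lower in FA, beside 2.99% and 4.63% of all loci. With 1 FPKM added in place of 0.1 the shares were 1.48% higher and 3.38% lower, beside 1.47% and 2.34% of all loci, so the excess of higher loci was not seen.

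The refeeding comparison used the other deposited table, which holds RF and FA values for 1 transcript per locus. There 29 of 426 loci (6.81%) were 2-fold or more higher in RF, beside 4.47% of all 10493 loci at 1 FPKM or more, and 16 (3.76%) were lower, beside 3.68%. Of 186 lincRNA loci, 5.38% were higher and 5.91% lower in RF. The median log2 ratio of RF over FA was 0.10 for pseudogenes and 0.02 for all loci. By class, 19 of 376 processed, 6 of 33 unprocessed and 4 of 17 remaining loci were higher in RF. Some of these, such as Gm5873, Gm11295 and Eif1-ps1, were below 1 FPKM in FA and passed the level only through RF. The FA libraries enter both comparisons, so ratios in opposite directions share their noise.

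RF and AL were set side by side where the FA values of the tables agreed within 10%, which held for 1503 of 1732 pseudogene loci with an FA value above 0. The tables may have been normalized separately. Among the 390 such loci at 1 FPKM or more in either table, 7 (1.79%) were 2-fold or more higher in RF than in AL, beside 2.26% of all 8757 such loci, and 12 (3.08%) were lower, beside 3.13%. The higher ones included Gm15375 (1.65 FPKM in RF, 0.235 in AL), closest to the glucuronosyltransferase gene Ugt1a10, Gm7993 (2.05 and 0.893), closest to Odc1 of polyamine synthesis, and Gm19807 (5.42 and 2.44), closest to Pbdc1. The lower ones included RP24-306C18.10 (1.22 in RF, 4.47 in AL), closest to the ubiquitin ligase gene Rnf125, and the urinary protein pseudogenes Mup-ps12 (0.534 and 2.09) and Mup-ps14 (0.148 and 1.04).

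The 14 loci of 13 genes that were 2-fold or more lower in FA than in AL and 2-fold or more higher in RF than in FA included the loci with the lowest FA ratios, and 9 loci ran the other way. Of the 363 matched pseudogene loci at 1 FPKM or more in both tables these are 3.86% and 2.48%, beside 1.9% and 2.16% of all 8140 such loci. Serpina4-ps1 is an unprocessed pseudogene in the serpin cluster on chromosome 12 (chr12:104080649-104086724, plus strand) whose human counterpart encodes kallistatin, a protease inhibitor. Its locus on the opposite strand had 27.0 FPKM in RF, 2.10 in FA and 39.0 in AL. Its locus on the annotated strand had 8.62 in RF, 0.548 in FA and 13.8 in AL. The log2 ratios of FA over AL were -4.15 and -4.43, the lowest of the unprocessed class, and both loci were closer in RF to AL than to FA.

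The copies of sterol and fatty acid genes followed, each at a locus assembled on the strand opposite to the annotated pseudogene. Gm3571 had 26.2 FPKM in RF, 1.37 in FA and 27.7 in AL, a log2 ratio of -4.24 for FA over AL. The locus that names Fdps with Rusc1 and Gm43738 had 14.1 FPKM in FA and 266 in AL, a log2 ratio of -4.23. Gm5873, the other Fdps copy, had 4.38 in RF, 0.279 in FA and 4.82 in AL, a log2 ratio of -3.70. Both copies thus sat at a small share of the Fdps locus and at a similar ratio. Gm37784 had 19.4 FPKM in RF, 2.30 in FA and 16.0 in AL (log2 ratio -2.75), and the locus of Insig1 had 23.5 in FA and 151 in AL (log2 ratio -2.68). Gm6781 had 11.0 FPKM in RF, 1.99 in FA and 6.56 in AL, and Fdft1 had 36.6, 26.4 and 38.6. Here the pseudogene's log2 ratio of -1.67 for FA over AL was further from 0 than the -0.54 of Fdft1. Gm11295 had 2.12 in RF, 0.402 in FA and 1.35 in AL (log2 ratio -1.53), while Elovl6 had 1.18 in FA and 10.4 in AL (log2 ratio -3.03). The Insig1, Fdft1 and Elovl6 copies were grouped here after their values were seen. Only the Fdps copies belong to the list of fatty acid and sterol genes. There 2 of 2 eligible loci were lower in FA, beside 3.83% of all loci, and both are copies of 1 gene. How far reads of the parent gene make up these values was not tested.

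The other loci with this pattern had higher levels or more distant parents. H2-Bl, a polymorphic pseudogene among the class I histocompatibility genes on chromosome 17, was assembled on the opposite strand. It had 132 FPKM in RF, 59.9 in FA and 137 in AL. H2-K2, an unprocessed one, had 2.25 in RF, 1.04 in FA and 2.21 in AL on the opposite strand, with H2-K1 at 137 in FA and 142 in AL. Gm13904, 90.1% identical to the mitochondrial phosphate carrier gene Slc25a3, was also assembled on the opposite strand. It had 17.6 FPKM in RF, 6.39 in FA and 14.7 in AL. Slc25a3 had 79.7 in FA and 80.3 in AL, so this copy and its parent differed in ratio. Gm11341 had 9.16 in RF, 2.80 in FA and 10.7 in AL, and its parent Rpl27a had 57.2 in FA and 55.5 in AL. The unprocessed Gm4956 on chromosome 1 had 2.50 in RF, 1.04 in FA and 3.08 in AL on the opposite strand. Its annotated-strand locus had 4.32 in FA and 15.4 in AL, and its RF value was read from a transcript whose FA level did not match.

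The 9 loci higher in FA than in both other groups were mostly low. All but Gtpbp4-ps1 and RP24-285L8.2 were below 1 FPKM in both RF and AL and passed the level only through FA. FA also enters both ratios, so their pattern partly follows from how they were chosen. Gtpbp4-ps1, in a locus on chromosome 7 shared with the homeobox pseudogene Obox4-ps38, stood out in level with 6.21 FPKM in RF, 15.6 in FA and 4.43 in AL. Its parent Gtpbp4, a GTPase of ribosome assembly, had 6.29 in FA and 7.67 in AL. Mup-ps22 had 0.230 in RF, 2.11 in FA and 0.509 in AL. Gm37339, closest to the prolyl isomerase gene Pin4, had 0.467, 1.65 and 0.332. Uqcrh-ps2 (0.840 in RF, 1.95 in FA, 0.904 in AL) and Gm6969 (0.907, 2.09, 0.960) are copies of the respiratory chain genes Uqcrh and Cox7a2l, which had 140 FPKM in FA and 138 in AL, and 15.3 in FA and 13.8 in AL. The other 4 were Gm14000, Gm27043, RP24-285L8.2 and 5830417I10Rik, with FA values of 1.12 to 3.07 FPKM, and 5830417I10Rik was listed at 0 in RF.

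**Figure D2:**
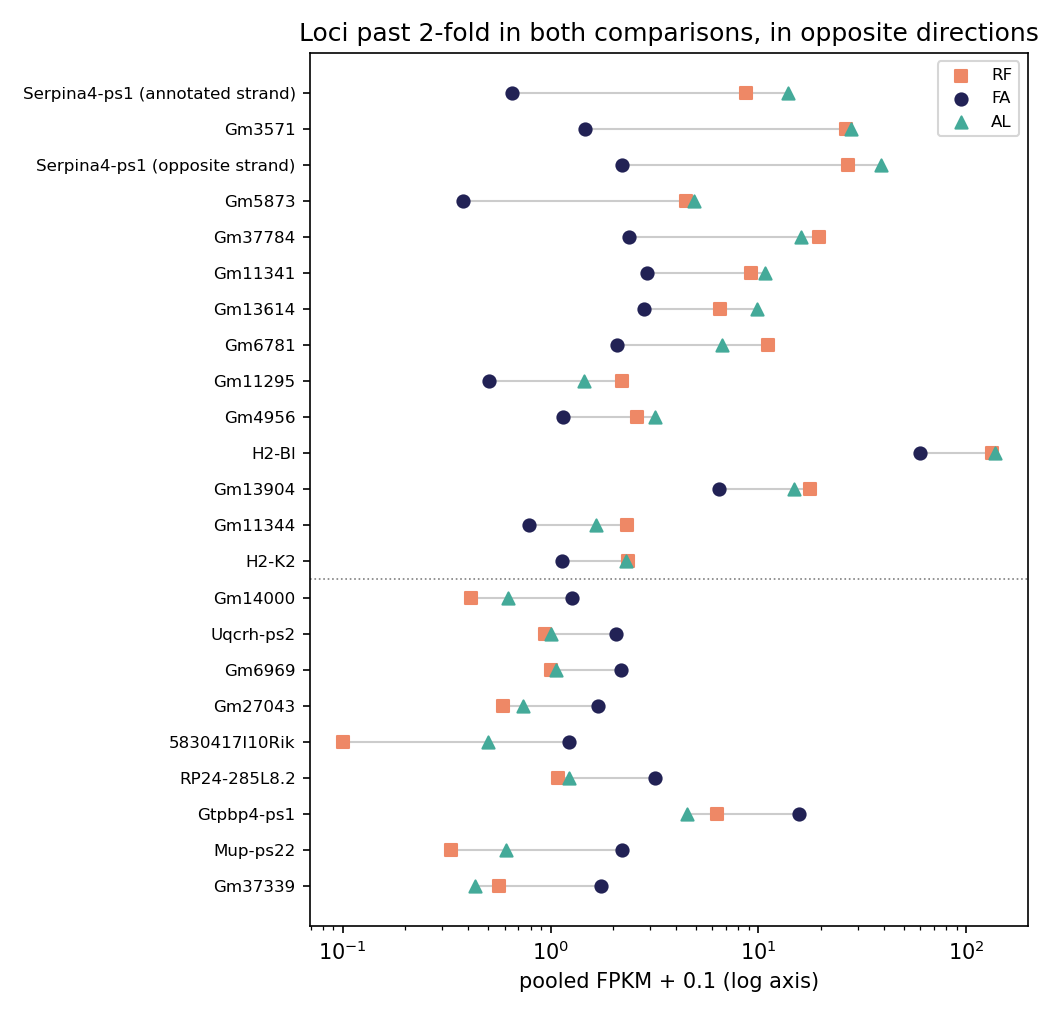
Pooled FPKM + 0.1 on a log axis in RF (squares), FA (circles) and AL (triangles) for the 23 loci past 2-fold in both comparisons in opposite directions, 1 row per locus. The 14 loci above the dotted line have FA lowest, the 9 below it have FA highest, and Gm3571, Gm5873 and H2-Bl have nearly equal RF and AL values.

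Further loci were past 2-fold in FA and AL alone. The highest log2 ratio belonged to the opposite-strand locus of Nlrp5-ps with Obox4-ps3 (1.62 FPKM in FA, 0.287 in AL, log2 ratio 2.15), whereas the annotated-strand Nlrp5-ps locus had 16.5 in FA and 21.7 in AL and carries only the name of the vomeronasal receptor gene Vmn1r90. Gm20677 had 3.14 FPKM in FA and 0.681 in AL and stayed at 2.45 in RF. Gm3375, whose locus also spans the miR-290 cluster of microRNAs, had 9.95 in FA and 2.76 in AL. Gm9711, closest to the complex I gene Ndufa7, had 35.7 FPKM in RF, 38.9 in FA and 17.9 in AL, while Ndufa7 had 78.1 in FA and 75.5 in AL. Gm44966 (1.18 in FA, 0.387 in AL) and Gm4784 (1.76 and 0.595) are copies of Eri2 and of the translation factor gene Eif4b. Of the lower loci, Gm12247 (0.177 in FA, 1.11 in AL) and Gm19280 (0.187 and 1.07) reached 1 FPKM only in AL. Only in the RF and FA table did the locus of Eif1-ps1 pass, with 2.34 FPKM in RF, listed at 0 in FA. Its AL value was 0.238 FPKM.

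Some of these loci lie side by side. On chromosome 5, within the Ugt2b cluster of glucuronosyltransferases, Gm20121 (chr5:86960121-86961714) and both loci of Gm7631 (chr5:86976820-86991777) were assembled on the minus strand. Gm20121 had 0.273 FPKM in FA and 1.64 in AL, and the Gm7631 loci had 0.129 and 1.12, and 0.0754 and 1.18. The 5 loci without a gene name between and just before them, also on the minus strand, had log2 ratios of FA over AL from -2.37 to -1.84. The whole run was thus lower in FA, and Ugt2b1, the gene closest in sequence to Gm7631, had 152 FPKM in FA and 301 in AL. On chromosome 13, Gm11343 (0.343 FPKM in FA, 1.48 in AL) and Gm11341 are neighbouring loci on the plus strand, and the nearest unnamed locus before them had 0.0864 in FA and 0.525 in AL. Chromosome 7 held 7 of the 22 higher loci and none of the 27 lower ones, with 45 of the 473 loci. It was picked after the counts of all chromosomes were seen. The share of all loci of chromosome 7 past 2-fold was not counted, so this cannot be read as a trait of its pseudogenes.

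By the strand of their assembled locus, pseudogene loci fell into groups of about equal number. The strand was read from the numbering of the loci along each chromosome. Of the 473 loci, 239 (50.5%) were assembled on the strand opposite to the annotated pseudogene, against 42.8% of protein-coding and 27.0% of lincRNA loci at the same level. Among 10407 pseudogene loci at any level, most of them listed at 0 in FA and AL, the opposite strand held 479. Opposite-strand loci mostly stood alone: 213 of 239 (89.1%) overlapped no protein-coding gene, and their median identity to a coding transcript was 97.95%. Annotated-strand loci mostly lay inside other genes: 162 of 234 (69.2%) overlapped a protein-coding gene on the other strand, 58 overlapped none, and their median identity was 89.6%. So a locus on the strand of its pseudogene was usually also opposite to a coding gene around it. In RF, 20 of 240 opposite-strand pseudogene loci (8.33%) were 2-fold or more higher than in FA, beside 2.78% of all opposite-strand loci. On the annotated strand it was 9 of 186 (4.84%), beside 5.39% of all. The larger share of pseudogene loci higher in RF was thus seen on the opposite strand only. For FA over AL, larger pseudogene shares were seen on both strands. Higher in FA were 5.13% of annotated-strand pseudogene loci beside 2.26% of all, and 4.18% beside 2.07% on the opposite strand. Lower in FA were 5.98% beside 3.15% on the annotated strand, and 5.44% beside 3.34% on the opposite strand. The strand on which each locus was assembled moves with identity and surroundings together, and the part of library strand or assembly in this was not tested.

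The median level was highest among the closest copies. The 130 loci at 98% identity or more had a median of 3.44 FPKM in FA and 3.95 in AL, and 112 of them (86.2%) lay on the opposite strand. The 119 loci under 90% had a median of 1.55 in FA and 1.61 in AL, 15 of them (12.6%) lay on the opposite strand, and 81 (68.1%) overlapped a coding gene. The groups between ran from 71.0% (95% to under 98%) to 33.8% (90% to under 95%) on the opposite strand.

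**Figure D3:**
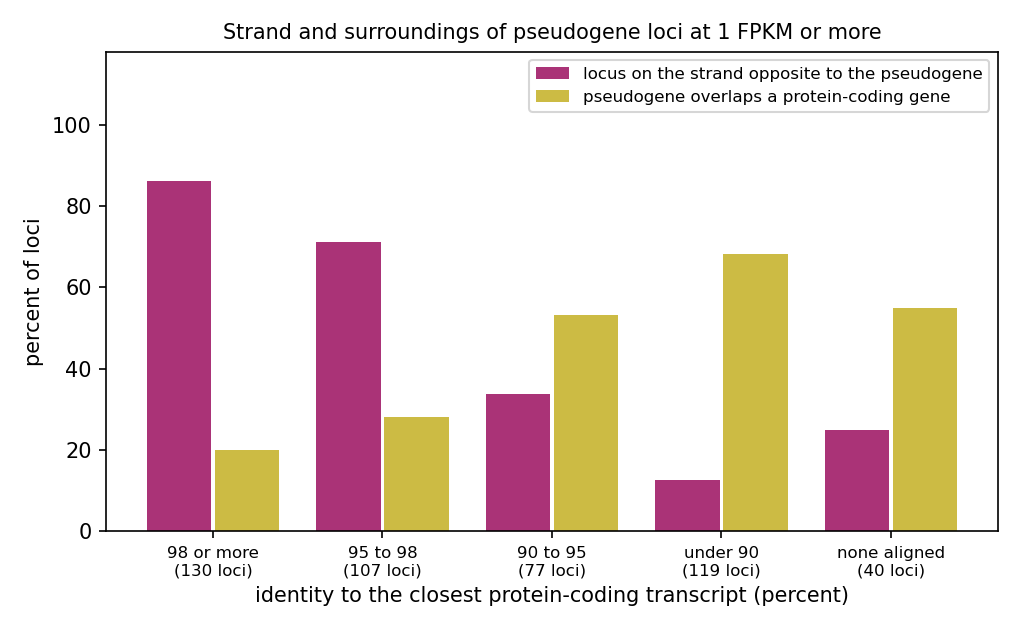
Percent of the 473 pseudogene loci whose assembled strand is opposite to the annotated pseudogene (left bars) and percent whose pseudogene overlaps a protein-coding gene (right bars), by identity to the closest protein-coding transcript. The opposite-strand share runs from 86.2% at 98% identity or more to 12.6% under 90%, and the overlap share from 20% to 68.1%.

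Pseudogenes and parent genes were compared in their ratio of FA over AL. By symbol, 46 loci such as Tpt1-ps3 had a parent that also reached 1 FPKM, and in 34 of them (73.9%) pseudogene and parent lay on the same side of 0. By alignment, 433 of 473 loci had a coding transcript covering at least 50% of their length, 395 of them paired with a gene at 1 FPKM or more, and 248 pairs (62.8%) lay on the same side. The parent had the higher FA level in 369 of 395 pairs. At 98% identity or more, 89 of 126 pairs (70.6%) lay on the same side and the log2 ratios differed by a median of 0.12. At 95% to under 98% it was 70 of 102 (68.6%), at 90% to under 95% it was 31 of 63 (49.2%), the lowest share, and under 90% it was 58 of 104 (55.8%), with a median difference of 0.41. Across pairs Pearson's r was 0.84 (Spearman's rho 0.56) at 98% or more, 0.70 (0.51) at 95% to under 98%, 0.07 (0.11) at 90% to under 95%, and 0.21 (0.18) under 90%. These describe pairs that share libraries, and some share a parent (294 parents in 395 pairs). Above 95% rho was lower than r.

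Strand split the pairs in the same way. Opposite-strand pseudogene loci lay on the same side as their parent in 161 of 218 pairs (73.9%, r 0.72, rho 0.59), and had a median of 15.2% of the parent's FA level. Annotated-strand loci did so in 87 of 177 pairs (49.2%, r 0.10, rho 0.14), at a median of 6.23%. The parent itself was measured on its annotated strand in 207 of the 218 pairs and in 163 of the 177.

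**Figure D4:**
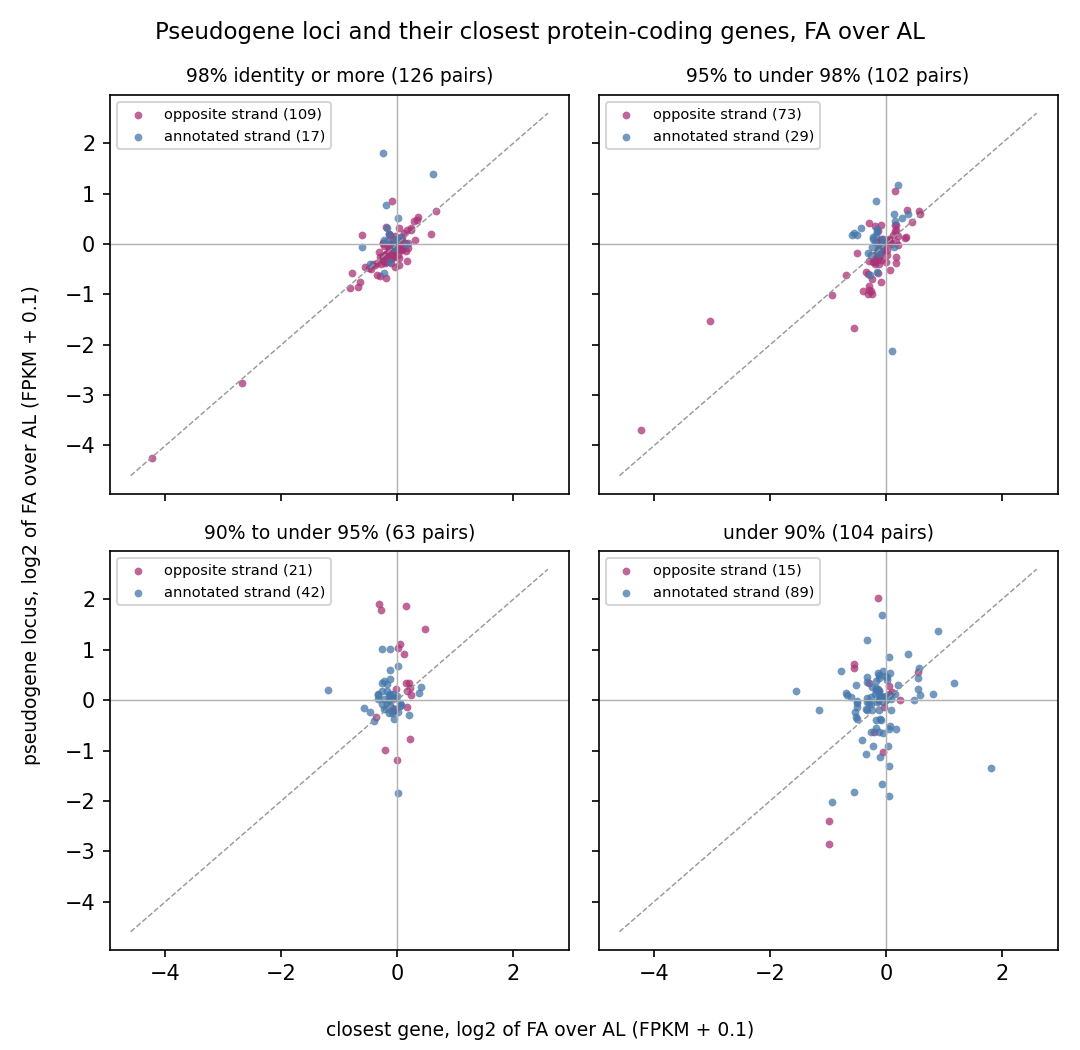
Log2 ratio of FA over AL of each pseudogene locus (vertical) against that of its closest protein-coding gene (horizontal) for 395 pairs in 4 panels by identity, 1 point per pair, coloured by the strand of the pseudogene locus. The dashed line marks equal ratios. Points at 95% identity or more gather along it (r 0.84 and 0.70, rho 0.56 and 0.51). Those below 95% scatter widely (r 0.07 and 0.21, rho 0.11 and 0.18).

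Annotated-strand loci were set beside the coding genes they lie in. In 148 such pairs with the host on the other strand and at 1 FPKM or more, pseudogene and host lay on the same side of 0 in 102 (68.9%, r 0.45, rho 0.44), and the host had the higher FA level in 134. Gm13614, a distant Rpl12 copy (74.3%) inside Abcb11, the bile salt export pump gene, had 2.71 FPKM in FA and 9.78 in AL, and Abcb11 had 56.6 and 115. RP24-285L8.2 inside Bnip3, a mitophagy receptor gene, had 3.07 FPKM in FA and 1.13 in AL, and Bnip3 had 128 and 55.4. Gm11344 inside Cmah, a gene of sialic acid modification, had 0.687 FPKM in FA and 1.55 in AL, and Cmah had 8.72 and 17.4. Gm17967 had 0.844 FPKM in FA and 2.91 in AL, and its host 9130409I23Rik had 0.518 and 1.85. In these 4 cases, picked after their values were seen, pseudogene and host lay on the same side of 0. Of their parents, Rpl7 (154 FPKM in FA, 162 in AL) was nearly level, while Rpl12 (43.4 and 64.0), Rplp1 (174 and 220) and the locus of Ggh and Ttpa (77.4 and 41.8) lay on that side too, closer to 0. Whether such values come from the host's transcript was not tested.

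By the family of the parent, the copies of cytosolic ribosomal proteins formed the largest group. A total of 111 loci reached 1 FPKM, 2 were 2-fold or more higher and 5 lower in FA, near the 2.73% and 3.83% of all loci, and the median log2 ratio was -0.05. Against FA, 4 of 100 were higher and 2 lower in RF, beside 4.47% and 3.68% of all loci, with a median of 0.18. In RF 64 of these 100 lay above 0, as did 254 of all 426 pseudogene loci (59.6%) and 5451 of all 10493 loci (51.9%). The 5 lower in FA were Gm11341, Gm11343, Gm13614, Gm17967 and Gm11344, all on the annotated strand and at 68.5% to 92.2% identity. The 2 higher were Gm15607 (4.44 FPKM in FA, 2.14 in AL) and Gm16061 (29.1 and 14.3), whose locus carries only the name Tmem120a and lies inside Por, the cytochrome P450 reductase gene with 116 FPKM in FA and 38.1 in AL. So none of the ribosomal protein copies past 2-fold was near-identical to its parent.

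Copies of translation factors had 14 loci at 1 FPKM or more, with a median log2 ratio of 0.01. Of these, 1 was higher in FA (Gm4784) and none lower, beside 2.73% and 3.83% of all loci. Eif4a-ps4, a copy of a translation helicase gene, had 28.1 FPKM in RF, 19.1 in FA and 21.2 in AL. Copies of glycolytic genes had 12 loci, of which 1 was 2-fold or more higher in FA (Gm27043, 0.490 FPKM in RF, 1.59 in FA, 0.635 in AL) and none lower, beside the same shares of all loci. Gm27043, like Gm4784 (0.595 FPKM in AL), reached 1 FPKM in FA but not in AL. Of the 12, 10 lay above 0, beside 46.7% of all 17319 loci, and the median log2 ratio was 0.29. Among them Gm11814 had 25.8 FPKM in RF, 34.5 in FA and 23.3 in AL. Copies of respiratory chain and ATP synthase genes had 19 loci, of which 4 were 2-fold or more higher in FA and none lower, beside 2.73% and 3.83% of all loci, and the median was -0.15. The 4 were Gm28924, Gm9711, Gm6969 and Uqcrh-ps2. Of these, Gm28924 (0.247 FPKM in AL), Gm6969 (0.960) and Uqcrh-ps2 (0.904) reached 1 FPKM only in FA, so this count partly follows from the level filter. Gm9711 was also among the most abundant of the 19. Gm12231, with 66.6 FPKM in RF, 60.4 in FA and 64.0 in AL, and Gm11966 had higher FA levels and lay within 2-fold.

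Families of liver enzymes and secreted proteins had few pseudogene loci at this level. Among 5 urinary protein loci 2 were higher in FA (Mup-ps17 with 2.87 FPKM in FA and 1.23 in AL, and Mup-ps22) and 1 was lower (Mup-ps14 with 0.301 and 1.04). Of all loci, 2.73% were higher and 3.83% lower. Mup-ps22 passed the level only through FA and Mup-ps14 only through AL, so these counts partly follow from the level filter. Mup-ps19 (4.46 and 2.92) stayed within 2-fold, and Mup-ps12 (1.00 and 2.09) did so only on the scale with 0.1 added, at a log2 ratio of -0.99. Gstm2-ps1, 97.9% identical to the glutathione S-transferase gene Gstm1, had 20.9 FPKM in RF, 15.005 in FA and 30.6 in AL, and the locus of Gstm1 and Gstm3 had 162 in FA and 308 in AL. The 2 cytochrome P450 loci were Cyp21a2-ps (0.947 in FA, 1.39 in AL) and the locus named for Cyp2c29. Heat shock and HMG copies had 9 loci within 2-fold (median 0.15), among them Hspd1-ps3 with 12.3 FPKM in RF, 9.20 in FA and 8.34 in AL. The ferritin copy Gm6977 (4.02 in FA, 4.71 in AL), the histone copy Gm12657 (1.76 and 1.69) and the sulfotransferase copy Gm6939, in a locus that carries only the name Slx1b (1.41 and 1.29), were nearly level. No locus at 1 FPKM or more had a carboxylesterase or metallothionein parent. These lists were chosen with results of these data known, and their counts describe these pooled values.

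**Figure D5:**
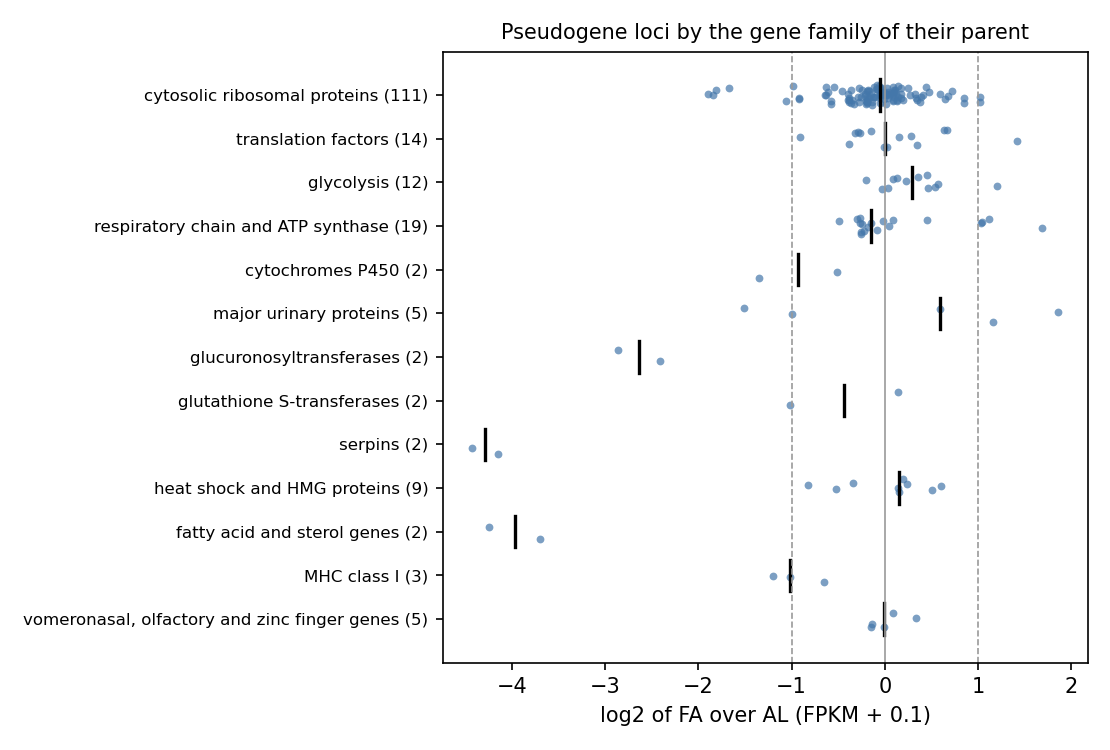
Log2 ratio of FA over AL for pseudogene loci at 1 FPKM or more, by the gene family of the parent, with the number of loci in parentheses, 1 point per locus and a black bar at each median. Families with fewer than 2 loci are left out. The dashed lines mark 2-fold, and the medians lie between them except for the serpins (-4.29), the fatty acid and sterol genes (-3.97), the glucuronosyltransferases (-2.64) and the class I genes (-1.02). The serpin loci are both Serpina4-ps1, the glucuronosyltransferase loci both Gm7631, and the sterol loci both copies of Fdps. H2-K2 enters the class I genes with loci on both strands.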

How the data were processed

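Liver total RNA of 12 libraries was depleted of ribosomal RNA and sequenced in pairs from strand-specific libraries. According to the submitters' processing notes and the study's methods, the authors removed ribosomal reads with Bowtie2 2.2.9, aligned the rest to the mouse genome (GRCm38, mm10) with STAR 2.6.0c and assembled, merged and compared transcripts with the Cufflinks suite 2.2.1. The deposited values are FPKM, which the authors' Cuffdiff run pooled to 1 value per group. There are 2 tables of 66468 loci, one with FA and AL values per locus, the other with RF and FA values for 1 transcript of each locus. With 0 columns for individual libraries and only FPKM, depth and spread are unknown. The sources used here do not say how libraries were scaled to each other. The tables also hold the authors' fold changes, statistics, p-values, q-values and calls, which were not used here.

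Groups came from the sample titles. Members and lists were chosen with earlier results of these data known. Ratios were log2 of FPKM + 0.1, read at 1 FPKM or more in either group, with a difference counted from 2-fold and set beside the share of all loci past it. RF and AL were set side by side only where FA agreed within 10%. Parents were taken by symbol (the part before -ps) and by alignment of 471 GENCODE M21 pseudogene transcripts to 58758 protein-coding transcripts with blastn 2.17.0 (E of 1e-10 or less, at least 50% of the pseudogene covered, overlapping genes left out); 2 transcripts were not in GENCODE M21. A parent's values are those of the locus naming it with the highest mean. Counting was tested on simulated data, with Python 3.11.15 and pandas 2.3.3. Alternatives changed the pseudocount, level, fold, centring and the loci admitted.

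Loci to name were listed by rule: for each comparison the 8 highest and 8 lowest processed loci and the 5 highest and 5 lowest others, the 10 highest in FA, those past 2-fold in both comparisons in opposite directions, and up to 4 of each family. Not all of the listed loci are described above, with RP23-354L18.8, Gm37313 and 9030619P08Rik among those left out. Loci just beside named ones, the higher and lower loci of RF over AL and the loci inside host genes were chosen after their values were seen.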

Additional observations from a re-analysis of the deposited data

How the results depend on the processing

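The values are pooled, so no library could be left out. No paired analysis was possible because the columns carry no replicate numbers. Counts of pseudogene loci are given as higher and lower in FA over AL (22 and 27) and then higher and lower in RF over FA (29 and 16). A pseudocount of 1 gave 7 and 16, then 12 and 5. A level of 0.3 FPKM gave 47 and 53, then 53 and 40, a level of 5 FPKM gave 5 and 13, then 12 and 1, and no filter gave 81 and 92, then 93 and 73. Set beside all loci, the excess of pseudogene loci shrank or went at these lower levels and with the larger pseudocount. For higher in FA it was 1.48% beside 1.47% at a pseudocount of 1, 5.11% beside 4.69% at 0.3 FPKM and 4.07% beside 4.09% with no filter, and for lower in FA 3.38% beside 2.34%, 5.77% beside 5.50% and 4.63% beside 4.94%. For higher in RF it was 2.82% beside 2.40%, 6.21% beside 6.03% and 4.77% beside 4.39%. A fold of 1.5 gave 41 and 56, then 47 and 35, and a fold of 3 gave 8 and 16, then 12 and 4. Annotated-strand loci alone gave 12 and 14, then 9 and 9. With transcripts of 300 bases or longer it was 13 and 24, then 27 and 8. At 5 FPKM, a fold of 3 and this length, in that order, the excess remained. Higher in FA were 3.73% beside 2.99% of all loci, 1.69% beside 1.14% and 3.23% beside 1.85%. Lower in FA were 9.70% beside 4.63%, 3.38% beside 1.92% and 5.96% beside 2.90%. Higher in RF were 10.1% beside 5.75%, 2.82% beside 2.19% and 7.32% beside 3.45%. Lower in RF the pseudogene share was below that of all loci in each. Further sets were added after seeing the data and have fewer loci by construction. Opposite-strand loci gave 10 and 13 for FA over AL, then 20 and 7 for RF over FA. Pseudogenes outside coding genes gave 13 and 19 for FA over AL, then 24 and 9 for RF over FA. In all, 30 counts and shares stayed within 1.5 times or inside their binomial interval, among them all with a pseudocount of 0.01, centring, or FA agreement within 2% or 20%. Of 52 ratios of loci listed from the ends of the rankings, 49 were past 2-fold and 29 of these remained so with a pseudocount of 1. Those that did not included Gm7631 (-0.91 at its locus with -2.41), Gm12247 (-0.84), Gm19280 (-0.80) and Gm37339 (0.99). The FPKM carry no counting error here, and ratios near 1 FPKM or of transcripts under 300 bases are the least certain.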
